A study of Rattus norvegicus with 4 samples.

Results

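Rat1-Omomer cells were compared directly with Rat1-control cells after 90 min of serum, over every probe set of the Affymetrix RG-U34A array apart from the manufacturer's AFFX controls. The comparison rests on 2 arrays, 1 per cell population, and the members were 8740 of the 8799 probe sets. Of these, 6996 are described first. The other 1744, whose IDs begin with rc_AA79, rc_AA80, rc_AA85, rc_AA87 or rc_AA89 and which interrogate expressed sequence tags, are called the 5 EST series and described apart, because their values on the Rat1-Omomer array at 90 min stood away from those of other probe sets, also for the same genes.

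Rat1 is an immortalized line of rat fibroblasts. Rat1-Omomer cells had been stably infected with a retrovirus producing Omomer, which is Omomyc fused to the ERTM domain of the oestrogen receptor, and Rat1-control cells with a control virus. Both populations were held for 48 h in 0.1% serum and then given 10% serum, and both received 4-OHT, the tamoxifen derivative that activates the fusion, so that the control differs in the virus and not in the drug. The labels place 4-OHT in the medium throughout starvation while the methods start it only hours before serum, and the length of exposure is therefore not settled. RNA was taken at 0 min and at 90 min of serum, 1 array for each of the 4 conditions. The arrays were assigned by their titles; a separate transfection label names the control vector for both arrays at 0 min and Omomyc for both at 90 min, which contradicts the title of 2 of them, the control array at 90 min included, and every direction here rests on the titles. An infected population compared once with another does not separate the transgene from differences between the populations or the arrays.

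Myc is a basic helix-loop-helix leucine zipper protein that dimerizes with Max, binds E-box sequences and activates many genes of growth and metabolism, and it represses others through partners such as Miz-1. Omomyc is a Myc zipper mutant whose altered residues let it pair with Myc as well as with Max and with itself. Serum given to quiescent fibroblasts switches on immediate early genes within minutes, many of them through serum response factor, and Myc is itself one of the early genes.

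The values are MAS 4 average differences, an intensity on a linear scale that can be negative, and the floor below which they were not distinguished from noise was 1048, that is 2 times the noise SD of 524. A probe set is called higher or lower where Rat1-Omomer and Rat1-control cells differed by 3-fold or more, and in what follows Omomer and control stand for these populations. Where 1 of the 2 values lay under the floor the ratio is a bound, written as at least so many fold, and where both did, no ratio was taken. No spread between cultures could be measured, so no difference below carries a test, and fewer cells expressing a gene cannot be told apart from less of its RNA per cell. As a guide to error, different probe sets of the same gene differed with an SD of 0.61 in the log2 ratio over 355 genes outside the 5 EST series at 90 min, against 0.31 over 408 genes for the same ratio at 0 min.

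At 90 min the ratios were shifted as a whole, and at 0 min they were not. Of the 6996 probe sets outside the 5 EST series, 2372 were above the floor on both arrays, and their median log2 ratio of Rat1-Omomer over Rat1-control was 0.36, with quartiles of -0.17 and 0.72. A log2 ratio above 0 was found for 67.9% of them. The median was between 0.27 and 0.43 in each of 5 equal classes of the level, and at 0 min it was 0.01. The trimmed mean outside the series, without the 2% of probe sets at each end, was 2549 on the control array and 2887 on the Rat1-Omomer array, while in the series it was 2304 and 1198. The 9 bacterial spike-in probe sets had ratios from 0.97 to 1.49 at 90 min, with a median of 1.12. At 0 min all 9 read lower on the Rat1-Omomer array, the brightest at 50167 in control and 46441 in Omomer cells and another at 6752 and 3641. The spike-ins thus did not follow the medians of the other probe sets at 0 min. Of the 20 fibroblast marker genes 17 were above the floor on each array, with a summed brightest level of 686741 in Rat1-control and 795084 in Omomer cells. For 3 of them the brightest probe set lay in the series; outside it the sum, over 19 genes, was 592113 and 731632. Of 41 marker genes of other cell types 8 and 9 were above the floor, with 29 under it throughout. The part of these shifts in the results below was not tested. List medians are to be read beside the median of 0.32 over all 3156 probe sets with a ratio. List counts, unless said to be of the series, are to be read beside 2.57% higher and 3.30% lower over the same 3156.

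**Figure D1:**
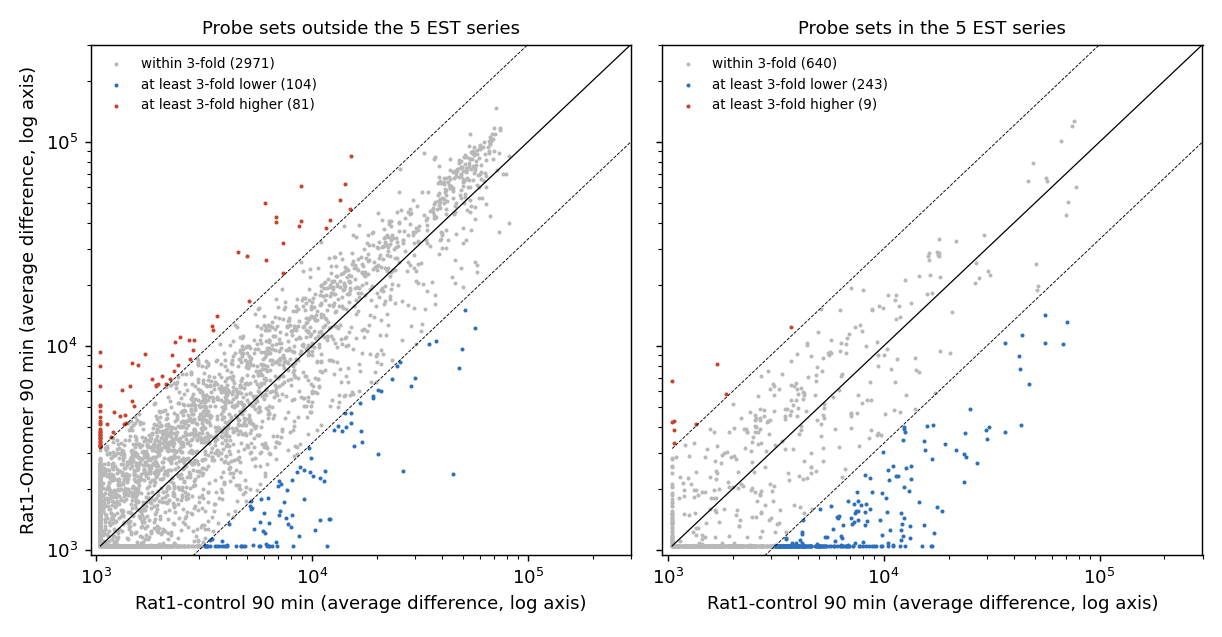
Average difference on the Rat1-control array (x) and the Rat1-Omomer array (y) at 90 min, both on log axes, for probe sets outside (left) and in (right) the 5 EST series; 1 point is 1 probe set with a ratio, values under the floor of 1048 are drawn at it, the solid line marks equal values and the dashed lines 3-fold. Outside the series 81 points lie at or above the upper line and 104 at or below the lower one, and in the series 9 and 243.

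Outside the 5 EST series, 81 of 3156 probe sets with a ratio were called higher in Omomer cells (2.57%) and 104 were called lower (3.30%). The higher ones with a single gene symbol were 64 and belonged to 54 genes, and the lower ones were 93 and belonged to 89 genes. Bounds made up 29 of the 81 and 27 of the 104. The balance between the directions depended on the scaling: higher calls were 43.8% of all calls on the deposited scale, 29.6% (53 higher, 126 lower) when both arrays were scaled by the trimmed mean outside the series, a log2 shift of -0.18, and 17.3% (33 higher, 158 lower) when the ratios were centred on their median outside the series, a log2 shift of -0.36. The calls nearest the threshold had log2 ratios of 1.61 and -1.59, and the nearest probe sets outside it 1.58 and -1.58.

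Immediate early genes led the higher side. The list of immediate early and serum response genes had 66 probe sets with a ratio and a median log2 ratio of 0.67, against 0.32 over all. From 7 genes 12 (18.2%) were called higher, and 3 (4.55%) were called lower, against 2.57% and 3.30% of all probe sets. After centring its median was 0.33, with 10 higher and 7 lower. These counts are of probe sets outside the 5 EST series. In the series, where 27.2% of all were lower, 4 of 5 probe sets of this list were lower and none higher. Many of these genes encode short-lived regulators that serum calls up before new protein is made.

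Nr4a1 and Nr4a3 are orphan nuclear receptors of this class. The brighter Nr4a1 probe set read 16461 in control and 6195 in Omomer cells before serum, and 15137 and 85746 at 90 min, a ratio of 5.66-fold. The second Nr4a1 probe set read 8879 and 60829 at 90 min, 6.85-fold. Both were therefore level in time on the control arrays and highest of the 4 arrays in Omomer cells after serum. Nr4a3, by 1 probe set under the floor on both arrays at 0 min (289 and 559), read 6790 in control and 40343 in Omomer cells after serum, 5.94-fold. Its other probe set with a ratio had a log2 ratio of 0.72 at 90 min.

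Zfp36l1, a zinc finger protein that promotes decay of AU-rich mRNAs, had the highest ratio of any gene above the floor on both arrays. Its probe sets read 6046 in control and 50240 in Omomer cells, 8.31-fold, and 4569 and 28847, 6.31-fold. At 0 min the same pair had read 14508 and 16594, and 14553 and 9803. By both probe sets the control value at 90 min was below that at 0 min, and the Omomer value above.

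Dusp1, the phosphatase that switches off MAP kinases, was higher by all 3 of its probe sets, with ratios of 6.35-fold (6787 in control, 43122 in Rat1-Omomer), 4.37-fold (7344 and 32065) and 3.10-fold (15076 and 46767). Its order was the opposite before serum: at 0 min the 3 probe sets read 15893, 15851 and 24248 in control and 4340, 4022 and 11363 in Omomer cells. The gene for the synaptic immediate early protein Arc had the same crossing, with 16228 and 6434 at 0 min and 13538 and 51956 at 90 min, 3.84-fold. Over the whole list, 8 of the 56 probe sets with a ratio at 0 min passed 3-fold downward then and none upward. Of all 2993 such probe sets outside the series 0.601% were lower at 0 min and 0.334% higher. The list's median log2 ratio at 0 min was -0.52, against 0.01 over all.

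Ptgs2, the inducible cyclooxygenase of prostaglandin synthesis, read 14283 in control and 61996 in Omomer cells by one probe set, 4.34-fold, and 38750 and 67202 by the other, a log2 ratio of 0.79. Klf4, a zinc finger transcription factor, read 2247 and 9069, 4.04-fold, and its second probe set was at least 7.66-fold higher, from 1012 to 8028. Bdnf, a neurotrophin outside the list, read 2316 and 10467, 4.52-fold, by 1 of its 5 probe sets with a ratio. A brighter one read 5617 and 15232, 2.71-fold, and the lowest of the 5 had a log2 ratio of 0.76. Homer1, which makes a short immediate early form and longer scaffold forms, was higher by 4.30-fold or more with 1 probe set (894 and 4506), while its other 4 with a ratio had log2 ratios from -0.79 to -0.16. Members of the Fos and Egr families lay between the threshold and the median or near it: Fos had log2 ratios of 1.36, 1.16 and, as a bound, 0.27, and Egr1 of 1.04, 0.98, 0.96 and 0.38.

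**Figure D2:**
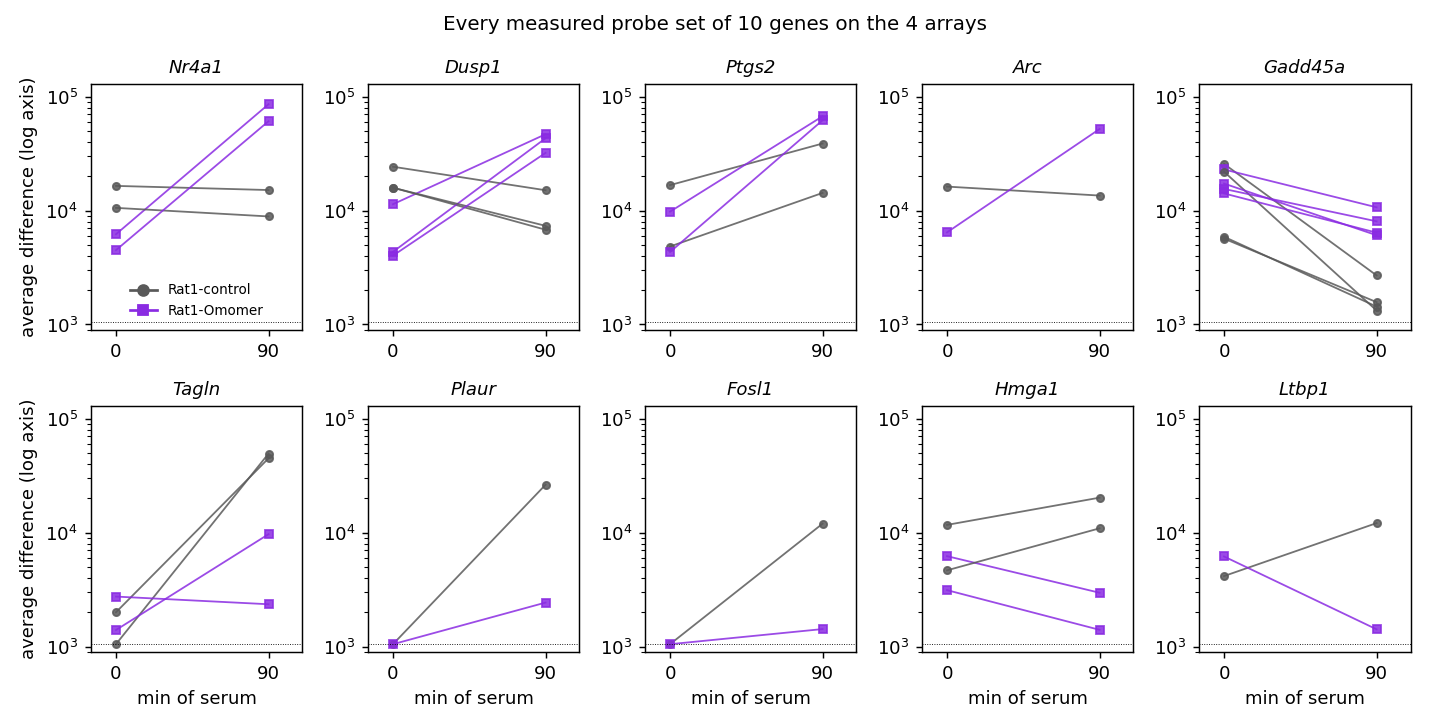
Average difference (y, log axis) at 0 and 90 min of serum (x) in Rat1-control (grey circles) and Rat1-Omomer cells (purple squares), 1 line per probe set outside the 5 EST series with a ratio at 90 min; values under the floor (dotted) are drawn at it and each point is 1 array. In the upper row the Rat1-Omomer points lie above the control points at 90 min, and in the lower row below them.

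Gadd45a, a growth arrest and DNA damage gene known as repressed by Myc, was higher by all 4 of its probe sets. On the control arrays they read 21925, 25674, 5670 and 5888 at 0 min and 1326, 2696, 1571 and 1435 at 90 min. On the Rat1-Omomer arrays they read 17252, 22940, 15479 and 14136 at 0 min and 6070, 10677, 8042 and 6396 at 90 min. The ratios at 90 min were 4.58, 3.96, 5.12 and 4.46-fold, and in every probe set the 90 min value was below the 0 min value of the same cells. These 4 were all the calls in the list of growth arrest and quiescence genes (20 probe sets with a ratio, median log2 ratio 0.58).

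Among 38 probe sets of cell cycle genes, 3 were higher and 2 lower, with a median of 0.46, and centring left 1 higher and 3 lower. The mitotic kinase Cdk1 read 1930 in control and 6522 in Omomer cells, 3.38-fold. Top2a, the topoisomerase that untangles replicated DNA, was at least 6.10-fold higher (865 and 6396, against a log2 ratio of 1.35 by another probe set), and Rbl2, a pocket protein that holds cells in quiescence, at least 3.74-fold (969 and 3916). For both, by the probe sets called higher, the control value was under the floor at 90 min. Rbl2 differed before serum too, with 1355 in control and 3231 in Omomer cells at 0 min, a log2 ratio of 1.25. Hbp1, a repressor of the cell cycle outside the list, was at least 3.53-fold higher (817 and 3702). Ccnd1, the D-type cyclin of G1, had 4 probe sets that did not agree, with 4.18-fold lower (5756 and 1378), at least 3.80-fold lower (3981 and 797), and log2 ratios of 0.08 and 0.81.

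The other higher genes described here were named by the size of their ratio and not by a list. Adh1c, an alcohol dehydrogenase, had the largest bound, at least 8.92-fold, with 7462 and 11463 at 0 min and 277 and 9346 at 90 min. A second Adh1c probe set had a log2 ratio of 1.08 at 90 min. Gstt2, a glutathione transferase, read 9653 and 9463 at 0 min and 1682 and 9143 at 90 min, 5.44-fold. For both genes it was the control array at 90 min that stood away from the other 3 arrays. Psma7, a proteasome core subunit, was alike, with 6588 and 7389 at 0 min and 659 and 5059 at 90 min, at least 4.83-fold, by 1 probe set, while a brighter one had a log2 ratio of 0.61.

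Psat1, an enzyme of serine synthesis, and Cyb5a, cytochrome b5, were higher in Omomer cells already before serum. Psat1 read 9572 and 34373 at 0 min and 12192 and 41660 at 90 min by its brightest probe set, 3.42-fold at 90 min. Its other probe sets had log2 ratios of 1.86 and 1.35 at 90 min and 2.19 and 1.35 at 0 min. Cyb5a read 2043 and 10946 at 0 min and 5091 and 16692 at 90 min, 3.28-fold, by 1 probe set, while the other had a log2 ratio of 0.96 at 90 min. Nupr1, a stress-responsive nuclear protein, read 11602 and 38075 at 90 min, 3.28-fold, and the peroxisomal fatty acid transporter Abcd3 read 2832 and 10750, 3.80-fold, by 1 probe set, while the other had a log2 ratio of -0.35 as a bound.

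On the lower side stood genes of the contractile cytoskeleton. Of 33 probe sets in the actin list, 6 (18.2%) from 5 genes were called lower, against 3.30% of all probe sets, and none higher. The list median was 0.02, and below 0 under each of the other 4 scalings (-0.33 after centring). Tagln, transgelin, an actin binding protein and a classic serum response factor target, had the lowest ratio on the array. It read 1998 in control and 2744 in Omomer cells before serum, and 44854 and 2350 at 90 min, 19.1-fold lower. The second Tagln probe set read 106, 1396, 49359 and 9682 in the same order, 5.10-fold lower at 90 min.

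Acta2, smooth muscle actin, gave 3 answers from 3 probe sets, with 34717 in control and 10194 in Omomer cells, 3.41-fold lower, and log2 ratios of -1.13 and 0.11 for the others. Actin sequences are close to each other, and the value of 1 actin probe set can include other actins. Tpm1, tropomyosin, which has many splice forms, was 3.42-fold lower by 1 probe set (8772 and 2563) and had log2 ratios from -0.34 to 0.86 by the other 4. Cald1, caldesmon, read 10088 and 2295, 4.39-fold lower. Msn, moesin, which links membranes to actin, was at least 3.39-fold lower, with 3555 in control and 413 in Omomer cells.

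Plaur and Fosl1 showed the same pattern as Tagln over the 4 arrays. Plaur, the urokinase receptor, was under the floor on both arrays at 0 min (-663 and 209) and read 26308 in control and 2431 in Omomer cells at 90 min, 10.8-fold lower. Fosl1, the AP-1 member Fra-1, went from -178 and -529 at 0 min to 11973 and 1423 at 90 min, 8.41-fold lower. In the 3 genes the control array at 90 min was the highest of the 4. Vegfa, an angiogenic growth factor, was lower by 6.04-fold or more with 1 probe set (6333 and 866). Of the serum response list these genes, Plaur, Fosl1 and Vegfa, were the 3 called lower.

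Some lower values, picked by size and not by a list, belonged to secreted and surface proteins, while matrix genes, adhesion receptors and receptor tyrosine kinases as lists had 1 of 40, 0 of 28 and 2 of 44 lower. Ltbp1, which holds latent TGF-beta in the matrix, read 4153 and 6171 at 0 min and 12115 and 1416 at 90 min, 8.56-fold lower. Tnc, tenascin C, was at least 4.67-fold lower (4892 and 468) by 1 probe set, which had been under the floor on both arrays at 0 min. The 3 Tnc probe sets with a ratio had log2 ratios from -2.22 to -0.68. Ngfr, the p75 neurotrophin receptor, read 8212 and 411, a difference of at least 7.83-fold, with a log2 ratio of 0.37 on a dimmer probe set, and Ptprn, a receptor-like phosphatase of secretory granules, was at least 11.3-fold lower (11801 and 766). By the probe sets called lower both had been bright on both arrays before serum, Ngfr at 8362 and 7099 and Ptprn at 8925 and 6351. Fgfr1, a growth factor receptor, was lower by 6.01-fold or more with 1 probe set (6298 and 756) and had a log2 ratio of 0.33 by another.

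Lists of chromatin and of RNA-binding proteins held 4 and 5 of the 104 lower probe sets. Hmga1, an architectural protein of AT-rich DNA and a reported Myc-induced gene, read 20262 in control and 2965 in Omomer cells by one probe set and 10904 and 1401, 7.78-fold lower, by the other. At 0 min the pairs were 11683 and 6212, and 4664 and 3125. Hmgb1, another architectural protein, read 19254 and 5589, 3.44-fold lower, and Smarcb1, a core subunit of SWI/SNF remodelling complexes, 3834 and 1102, 3.48-fold lower. With them 4 of 13 probe sets (30.8%) in the list of HMG and chromatin proteins were lower, against 3.30% of all probe sets, none was higher and the list median was -0.19. With so few probe sets this median was unstable, from -1.21 after centring to 0.10 with the lower floor, and 0.02 after quantile normalization.

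The list of RNA-binding and splicing proteins had a median of -0.30, the lowest on the deposited scale among lists with at least 12 probe sets, and -0.60 after centring. Of its 31 probe sets 5 (16.1%) were lower, against 3.30% of all probe sets, and none higher. Tra2b, a splicing activator, read 8021 and 1291, 6.21-fold lower, by 1 probe set and 6145 and 12393, 2.02-fold higher, by another. Ddx39a, an RNA helicase, was at least 6.22-fold lower (6515 and 965). Hnrnpab read 28851 and 6359, 4.54-fold lower. Hnrnpa1 read 13738 and 3845, 3.57-fold lower, by 1 probe set and 4646 and 9325, 2.01-fold higher, by another. For these 4 genes, by the probe sets called lower, the arrays at 0 min differed by less than 1.5-fold.

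Other low values fell on single members of several processes, in lists with few calls. Over all probe sets outside the series 3.30% were lower. In the secretory route they were Dnajb9, an ER co-chaperone (at least 6.60-fold, 6915 and 758), Erp29 (at least 4.60-fold, 4817 and 484) and 1 of 3 Calr probe sets (3.33-fold, 20172 and 6060, against log2 ratios of 0.21 and 0.15), which made 3 of 30 in the ER chaperone list, median -0.14. Of 61 probe sets for vesicle traffic and the V-ATPase 4 (6.56%) were lower, among them Atp6v0c, the proton pore subunit (37754 and 10585, 3.57-fold), and none was higher, and centring raised the 4 to 8. In metabolism, Idi1 and Sqle of sterol synthesis read 11353 and 2171, 5.23-fold lower, and 15747 and 3244, 4.85-fold lower, as 2 of 23 on a list with a median of 0.35. Mdh2, mitochondrial malate dehydrogenase, read 16914 and 3853, 4.39-fold lower, Got2 9821 and 2424, 4.05-fold lower, and Acsl4, a fatty acid ligase, 8732 and 1172, 7.45-fold lower, against a log2 ratio of 0.08 by a second Acsl4 probe set. Capn2, a calpain protease, read 10323 and 1258, 8.21-fold lower. Some of these Omomer values, as for Acsl4 and Smarcb1, lay close to the floor, and under 1228, the floor from that array's own noise.

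Most lists had few or no calls. Ribosomal proteins outside the 5 EST series had a median of 0.51, with 1 of 48 probe sets lower and none higher. No probe set outside the series was called in either direction among heat shock proteins (35 probe sets), adhesion receptors (28), TGF-beta, Id and Wnt genes (27), fibroblast markers (29) and markers of other cell types (12). Respiratory chain genes had 1 higher and 1 lower of 66, glutathione and redox genes 2 and 1 of 51, proteasome and ubiquitin genes 2 and 1 of 47, receptor tyrosine kinases and their signalling 1 and 2 of 44, small GTPases 0 and 1 of 42, matrix genes 0 and 1 of 40, growth factors 1 and 2 of 40, transcription regulators 2 and 0 of 35, translation factors 2 and 2 of 29, amino acid synthesis 2 and 2 of 29, glycolysis 0 and 2 of 27, matrix proteases 0 and 1 of 25, the citrate cycle 0 and 1 of 20, and interferon and innate defence 1 and 1 of 20. The Myc network itself had 2 probe sets with a ratio and tRNA synthetases 1, with none called. Centring turned the sign of 17 of the 32 list medians. All counts of this paragraph are of probe sets outside the series. In the series, heat shock proteins had 1 higher and 2 lower of 6. Fibroblast markers there had 1 higher and 2 lower of 5, and adhesion receptors 1 lower of 4.

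**Figure D3:**
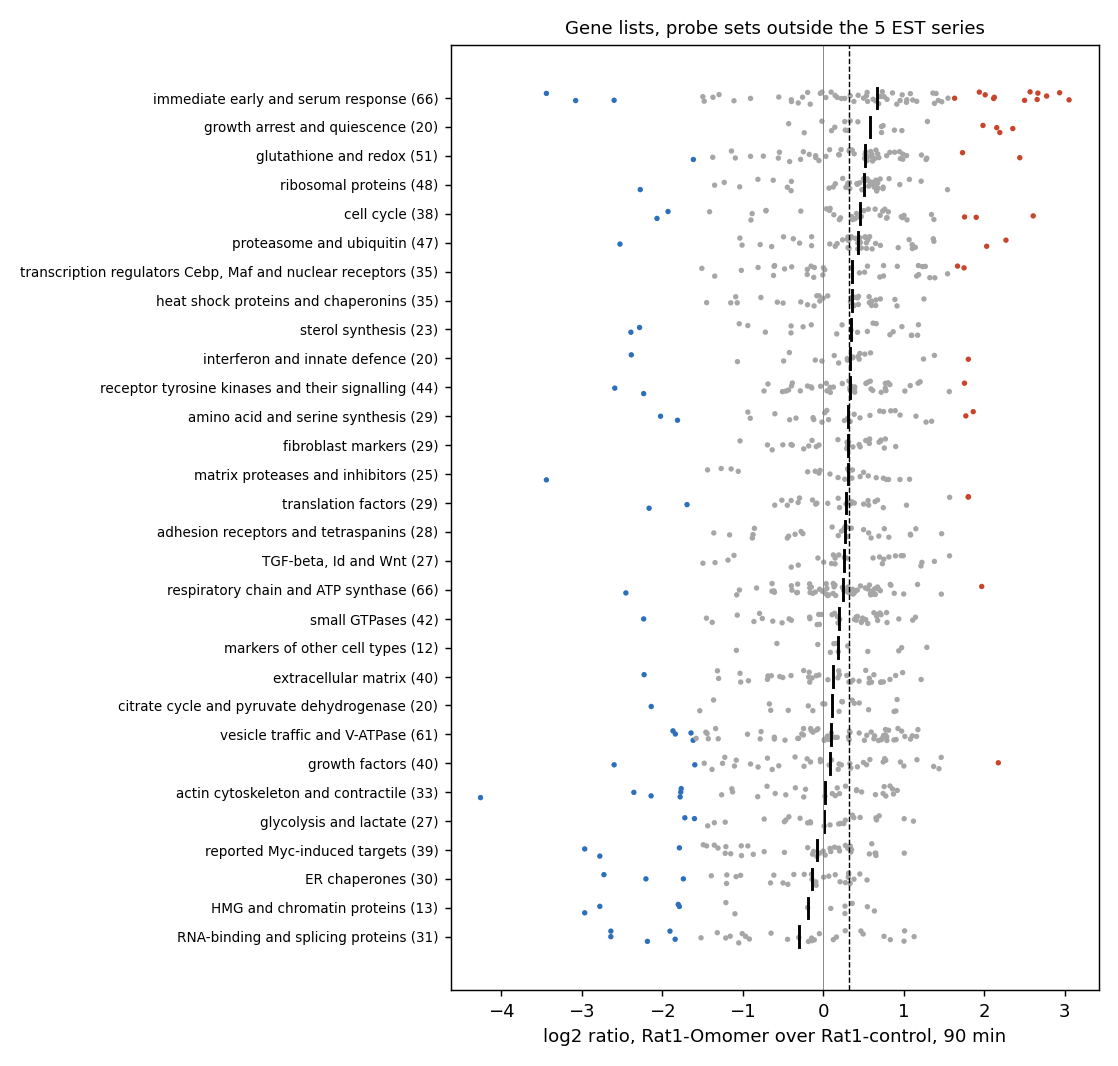
Log2 ratio of Rat1-Omomer over Rat1-control at 90 min (x) for the probe sets outside the 5 EST series of each gene list with at least 12 of them (y, number in brackets); 1 point is 1 probe set, blue at least 3-fold lower and red at least 3-fold higher, bounds included, the black bars are list medians and the dashed line is the median of 0.32 over all probe sets with a ratio. The red points of the immediate early list and the blue points of the actin and RNA-binding lists are the largest groups of calls.

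Reported Myc targets did not share 1 direction. Of 39 probe sets in the list of reported Myc-induced targets outside the series, 3 were lower (the 2 of Hmga1 and Hmgb1) and none higher, with a median of -0.08, and 5 were lower after centring. Nucleolin, Ncl, a ribosome assembly protein, read 20763 and 11385, a log2 ratio of -0.87, and Eef1a1, the translation elongation factor, read 46987 and 73494, a log2 ratio of 0.65, with a dimmer probe set at least 3.49-fold higher (879 and 3655). Ldhb, lactate dehydrogenase B, was lower by both probe sets, at 3.03-fold (3447 and 1139) and a log2 ratio of -1.43. Ruvbl1, a Myc cofactor, was at least 2.31-fold lower (2420 and 440), and Ccnb1, cyclin B1, had bounds of -0.71 and 0.13 in log2. Of genes known as repressed by Myc, Erbb2 read 1743 and 1001 and was at least 1.66-fold lower, and Gadd45a was higher as described. Jun read 5155 and 8098 by its brightest probe set at 90 min, a log2 ratio of 0.65, and had -0.25 by another. Fgfr1 is given above, and Akt1 and Mxi1 with the series below. Cad and Cdkn1a were under the floor on both arrays by every probe set.

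Myc itself read 1172 in control and 2307 in Omomer cells before serum and 4980 and 7233 at 90 min by its brighter probe set, a log2 ratio of 0.54 at 90 min and 0.98 at 0 min. The second Myc probe set was close to or under the floor (1171 and 159 at 90 min). The array was designed on rat sequence and no probe set is known to read Omomer, so neither value checks the labels.

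E-box letters are shown for 4 called genes, because CACGTG is the hexamer that Myc and Max bind; TGACGTCA, the cAMP response element through which many immediate early genes are driven, is marked as well. RefSeq promoter windows (GRCr8, 250 bases before to 50 after the annotated start) existed for 44 of the 54 higher genes and 69 of the 89 lower ones. CACGTG, which reads alike on both strands, was found for 5 of the 44 (11.4%) and 7 of the 69 (10.1%), against 9.26% of the 1619 genes with a ratio and 7.08% of the 27457 genes in the table. TGACGTCA was found for 2 of 44 (4.55%) and 2 of 69 (2.90%), against 2.35% and 2.0%. The choice of TGACGTCA was made after the values were seen, and the motifs do not overlap in these windows. The 250 bases before the start are printed on the strand of the gene, with both motifs in capitals. Dusp1 (chr10:17184603-17184852, plus strand) and Ptgs2 (chr13:64713813-64714062, plus strand) were higher in Omomer cells, and Dnajb9 (chr6:67002052-67002301, minus strand) and Msn (chrX:65005296-65005545, plus strand) were lower.
Dusp1: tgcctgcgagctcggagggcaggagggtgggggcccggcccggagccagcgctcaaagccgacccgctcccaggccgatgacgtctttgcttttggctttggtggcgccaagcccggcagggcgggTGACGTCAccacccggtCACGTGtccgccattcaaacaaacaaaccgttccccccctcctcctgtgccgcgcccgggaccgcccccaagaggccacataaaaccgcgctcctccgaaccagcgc
Ptgs2: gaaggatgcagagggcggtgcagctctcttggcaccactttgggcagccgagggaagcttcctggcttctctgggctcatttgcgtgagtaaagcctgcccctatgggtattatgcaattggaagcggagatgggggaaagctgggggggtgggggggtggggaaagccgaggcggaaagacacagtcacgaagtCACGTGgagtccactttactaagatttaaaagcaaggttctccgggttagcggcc
Dnajb9: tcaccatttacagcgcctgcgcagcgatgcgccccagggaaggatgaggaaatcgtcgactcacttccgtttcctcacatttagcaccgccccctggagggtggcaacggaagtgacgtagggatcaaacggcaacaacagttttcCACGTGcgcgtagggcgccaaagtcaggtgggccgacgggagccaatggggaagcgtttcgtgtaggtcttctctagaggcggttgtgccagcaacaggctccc
Msn: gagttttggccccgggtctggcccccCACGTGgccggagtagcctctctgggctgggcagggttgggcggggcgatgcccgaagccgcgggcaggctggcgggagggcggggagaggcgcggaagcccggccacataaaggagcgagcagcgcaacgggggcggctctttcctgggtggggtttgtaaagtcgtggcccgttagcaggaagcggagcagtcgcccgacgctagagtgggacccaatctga
The E-box began 107 bases before the start in Dusp1, 55 in Ptgs2, 104 in Dnajb9 and 224 in Msn, and the cAMP response element of Dusp1 began 124 before it. The letters were thus present in windows of genes of either direction, and a match is a description of the sequence and not a bound site.

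Before serum the cell populations differed little. The same ratio at 0 min, which shares no array with the one at 90 min, gave 10 of 2993 probe sets called higher outside the series (0.334%) and 18 called lower (0.601%). Over 2168 probe sets measured above the floor on each of the 4 arrays, Pearson's r of the log2 values was 0.963 between the arrays at 0 min and 0.873 at 90 min, and the SD of the log2 ratio was 0.40 and 0.81. Of the 104 probe sets lower at 90 min, 100 had a ratio at 0 min and 94 of these lay within 1.5-fold. Of the 81 higher at 90 min, 73 had one and 44 lay within 1.5-fold, 3 were called higher and 5 lower at 0 min. The share within 1.5-fold over all probe sets was not counted, so the 94 and the 44 cannot be read as particular to the called probe sets. With 1 array per condition, whether the difference itself changed between the times was not tested.

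**Figure D4:**
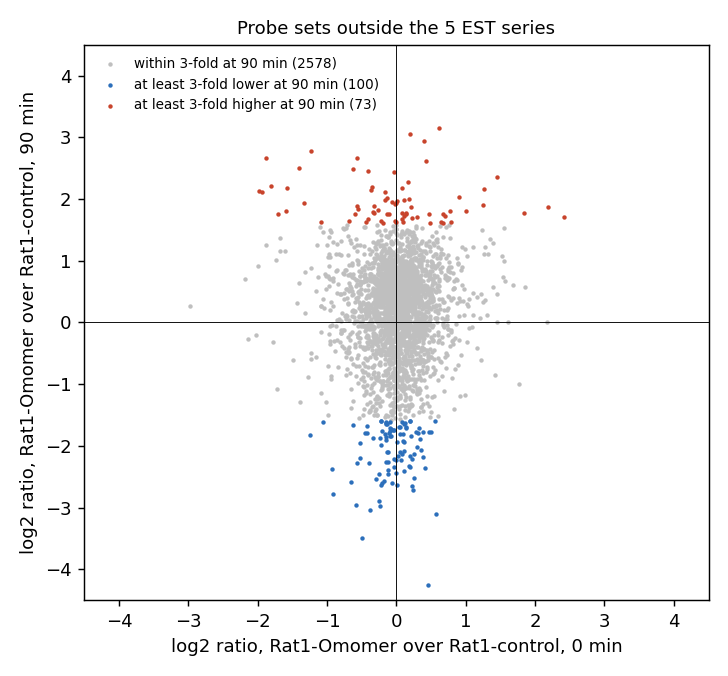
Log2 ratio of Rat1-Omomer over Rat1-control at 0 min (x) and at 90 min (y) for probe sets outside the 5 EST series with a ratio at both times; 1 point is 1 probe set, bounds included. Of the 100 lower at 90 min (blue) 94 lie within 1.5-fold at 0 min, and of the 73 higher (red) 44 do. The share over all points was not counted.

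Probe sets of 1 gene did not always fall on the same side. Of the 54 genes with a higher probe set, 25 had no second probe set with a ratio. In the other 29, 6 had all probe sets called higher, 23 had all on the same side of 1, these 6 among them, and 6 had 1 or more on the other side. Of the 89 genes with a lower probe set, 47 had no second one. In the other 42, 3 had all called lower, 22 had all on the same side and 20 had 1 or more on the other side, as for Calr, Tpm1, Acta2, Ccnd1, Tra2b, Hnrnpa1, Ngfr and Acsl4. Of all 3156 probe sets with a ratio outside the series 2114 lay above 1 and 1042 below. These counts therefore do not compare how well the higher and the lower genes are borne out.

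In the 5 EST series the picture was another one. Of 892 probe sets with a ratio, 243 were called lower in Omomer cells (27.2%) and 9 were called higher (1.01%), and 133 of the 243 were bounds. The lower share was 45.7% of 129 in rc_AA79, 37.6% of 101 in rc_AA80, 27.0% of 422 in rc_AA89 and 13.3% in both rc_AA85 (105) and rc_AA87 (135), against 5.15% of 777 other probe sets beginning with rc_ and 2.69% of 2379 without that prefix. At 90 min 48.3% of the series was above the floor in Rat1-control and 28.0% in Omomer cells. At 0 min none was higher and 2 of 984 were lower (0.203%), and r between the arrays over 432 probe sets was 0.969 at 0 min and 0.542 at 90 min.

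Where neither array was under the floor, the lowest ratios in the series belonged to Hnrnpa2b1, an RNA-binding protein (17113 and 1217, log2 ratio -3.81), Ssr3, a subunit of the translocon-associated complex (18671 and 1557, -3.58), Hnrnpc (13253 and 1140, -3.54), Eif3d, a translation initiation subunit (15410 and 1330, -3.53), Pgk1, phosphoglycerate kinase (23688 and 2162, -3.45), and Sem1, a proteasome subunit (17658 and 1632, -3.44). All 6 had been bright on both arrays at 0 min, at 8447 or more. The Omomer values of Hnrnpa2b1 and Hnrnpc at 90 min lay under 1228, the floor from that array's own noise. Of the 9 called higher, 2 were bounds, and those with a symbol and neither value under the floor were Mcm5, a subunit of the replicative helicase (1069 and 3872, 1.86), Dnajb1, a heat shock co-chaperone (3714 and 12409, 1.74), Phf20 (1065 and 3332, 1.65) and Dhx36, a helicase (1347 and 4150, 1.62), and apart from Dnajb1 their control values were close to the floor. Among brighter ones Scd2, a fatty acid desaturase (5132 and 15125, 1.56), and Marcks (7095 and 19343, 1.45) stayed under 3-fold. By list, 10 of 19 RNA-binding, 6 of 11 ribosomal, 10 of 22 vesicle and V-ATPase, 5 of 7 reported Myc-induced and 4 of 8 citrate cycle probe sets of the series were lower. So were 4 of 5 immediate early and serum response and 5 of 6 actin probe sets of the series, with none higher in either list. Over the whole series 27.2% were lower, and lists near or below that share are not among these. They include respiratory chain genes (2 of 18), small GTPases, matrix genes and translation factors (3 of 10 each), and HMG and chromatin proteins (0 of 4).

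Genes read both ways gave different answers. For 102 genes with probe sets in and outside the series the median log2 ratio at 90 min was -0.61 by the series and 0.29 outside it, and at 0 min, over 98 genes, 0.00 and 0.07. By these medians the series placed 27 of the 102 below the 3-fold line, other probe sets placed 2 there, and no gene was lower by both. By single probe sets, 3 genes, Hnrnpa1, Psap and Vegfa, had one called lower in the series and another outside it. For the 27, the ratios outside the series had a median of 0.29 and ran from -1.48 to 1.40. Pgk1 had a log2 ratio of -3.45 in the series and 0.70 outside it, Rpl3 -2.43 and 0.61, Junb -2.38 and 0.76, Zfp36 -2.30 and 1.40, and Akt1 -3.39 and -0.43. The Akt1 value in the series on the Rat1-Omomer array, 1177, also lay under that array's own floor of 1228. For Txnrd1 (a bound of -3.99, and -1.37) and Vegfa (-3.27 and -1.48) both were below 0. Mxi1 (at least 2.39-fold lower), Eif3b (-2.32 and -3.18), Idh2 and Anapc5 had their only ratios in the series, so that their values rest on it.

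**Figure D5:**
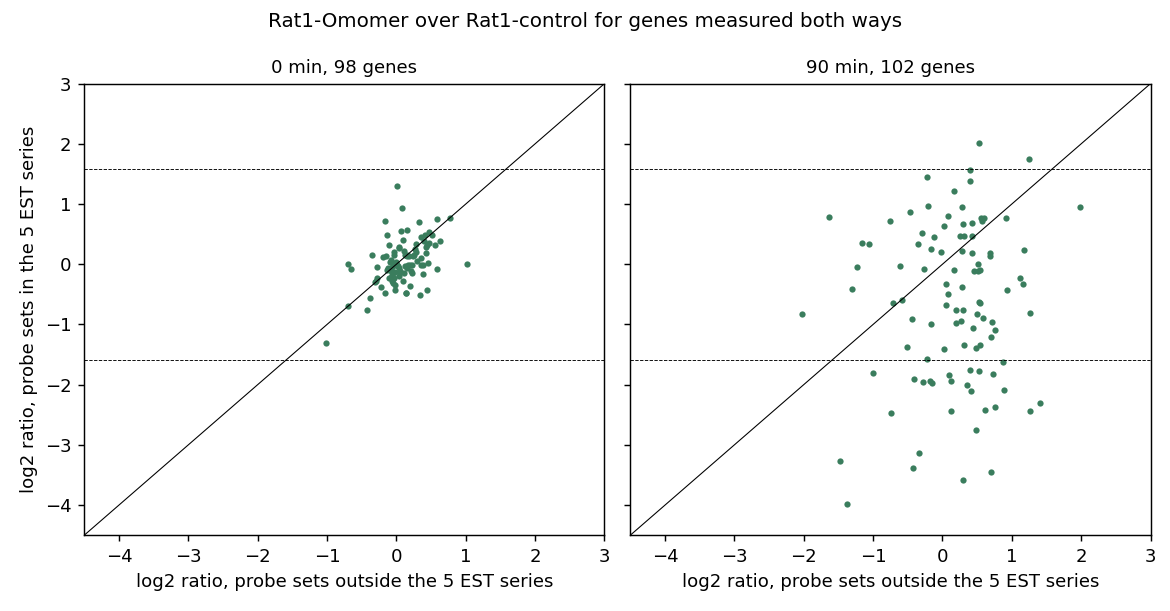
Median log2 ratio of Rat1-Omomer over Rat1-control by probe sets outside (x) and in (y) the 5 EST series, 1 point per gene, at 0 min (left, 98 genes) and 90 min (right, 102 genes); the diagonal marks equal ratios and the dashed lines 3-fold. At 90 min 27 points lie at or below the lower dashed line and at 0 min none does.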

How the data were processed

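Rat1 cells of 4 conditions were measured on 1 Affymetrix RG-U34A array each. The authors computed every value with MAS 4 and deposited it as an intensity, the average difference, on a linear scale, negative values included; the arrays had been scaled to nearly the same trimmed mean before deposit. Read depth does not apply, and the number of arrays, 1 per condition, limits the precision. Samples were assigned by title, since the transfection label of 2 samples contradicts it.

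From the deposited intensities, the noise SD was the median size of all negative values over the normal quartile, and the floor 2 times that SD. Values under it were set to it before the log2 ratio of the 90 min arrays was taken, and calls were made at 3-fold. With no replicates no test was run, and the methods' MAS 4 fold change with its own rules was not used. Gene symbols came from the platform's annotation table: 7006 probe sets had 1 symbol, 308 several and 1426 none, and 6985 of the 7006 had their gene in the RefSeq table. Genes were named by a rule, though not all that met it are described. Outside the 5 EST series it took the 15 highest and 15 lowest ratios of probe sets whose 2 values both passed the floor and averaged 3 times it or more. It also took the 5 largest bounds each way there, and in the series the 3 highest and 6 lowest. The rest were the 2 highest and 2 lowest of each of 32 gene lists, and 23 genes of the study. The Arc, Fos, Egr1, Homer1, Hbp1, Tnc, Erp29, Got2, Top2a, Rbl2, Nupr1, Msn, Junb, Zfp36, Txnrd1, Mxi1, Mcm5, Phf20, Dhx36 and Psap values, and some others among those called, were added after the values were seen. The comparison, the 5 EST series and the lists were chosen with earlier results of these data known. The steps were tested on simulated data. Python 3.11.15, numpy 2.4.6, pandas 2.3.3, scipy 1.17.1 and matplotlib 3.10.9 were used.

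Alternatives were floors of 1 and 4 times the SD or from each array's own noise, 4 other scalings, only probe sets with neither value under the floor, 1 probe set per gene, the array without all rc_ probe sets, and a 2-fold threshold. Centring the ratios on their median was chosen after seeing the data.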

Additional observations from a re-analysis of the deposited data

Results flagged for a closer look

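At 0 min and at 90 min the populations differed in opposite directions for 5 probe sets outside the 5 EST series, each past 3-fold both times; with 1 array per condition the difference between the times was not tested. Dusp1, the MAP kinase phosphatase, had log2 ratios of -1.87 and 2.67 by one probe set and -1.98 and 2.13 by another. Ddr1, a collagen receptor tyrosine kinase, had -1.70 and 1.76, the first a bound since its Omomer value at 0 min, 387, was under the floor. Another Ddr1 probe set had a log2 ratio of 0.13 at 90 min. The other 2 probe sets have no single gene symbol here and had -1.94 and 2.11, and -1.80 and 2.21.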

How the results depend on the processing

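No value changed direction under any alternative among the named probe sets that passed 3-fold, which could hardly have come out otherwise. These were picked for large ratios, and the other scalings moved ratios by far less than 3-fold. A change of floor or filter resizes or removes a ratio and hardly turns its sign, so the absence of reversals says little. Outside the 5 EST series (81 higher, 104 lower), the counts were 147 and 177 with a floor of 1 times the noise SD, 44 and 65 with 4 times, and 369 and 267 at 2-fold. Only 53 were higher after scaling by the trimmed mean outside the series, 52 when both values had to be above the floor, and 42 with 1 probe set per gene. Without all probe sets beginning with rc_, 64 were lower. After centring, which was chosen after seeing the data, 33 were higher and 158 lower. In the series (9 higher, 243 lower), the counts were 17 and 383 with the floor of 1 SD, 3 and 118 with 4 SD, and 41 and 367 at 2-fold; 5 were higher after trimmed mean scaling and with 1 probe set per gene, 4 after centring, and 110 were lower when both values had to be above the floor. The cause was not tested, apart from the smaller number of probe sets that the stricter floor and filters leave. Median scaling, own-array floors and quantile normalization kept every count within 1.5 times. The series' median log2 ratio, -0.21, was 0.16 with the floor of 4 SD, where fewer dim probe sets enter. Of the 80 named probe sets past 3-fold, 66 to 80 stayed past it in the same direction under each alternative, the fewest when both values had to be above the floor.

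No paired analysis was possible because each condition has 1 array and the labels give no shared replicate numbers, and leaving out a replicate does not apply.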
